A study of Mus musculus with 19 samples.

Results

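Psmb11 cells that held Krt5 were compared with Psmb11 cells that did not, among single EPCAM+PLET1+ cells of the mouse thymic primordium at E12.5. Psmb11 is a proteasome subunit made by cortical thymic epithelial cells (cTEC). Krt5 is a keratin of basal epithelia that in the adult thymus marks mainly medullary cells (mTEC). The comparison asked what else, if anything, differed in Psmb11 cells that carried a medullary keratin. The authors also found Psmb11 in their E12.5 cluster of medullary progenitors, so Psmb11 alone does not show that a cell is cortical. The cells were chosen by their own read counts. A well was kept if it held 40000 to 400000 reads, and a member had at least 50 CPM of Psmb11 (CPM being read counts scaled to one common total per well), under 2000 CPM of the parathyroid gene Chga, and under 50 CPM of both Krt17 and Cldn4, which mark medullary progenitors. Of 733 wells in the table of counts, 367 of them from E12.5, 165 cells met these limits. The 64 cells with at least 50 CPM of Krt5 are called Krt5-positive below, and the 101 cells with less are called Krt5-negative.

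All cells were from wild-type embryos and were sorted singly into 96-well plates, with no treatment, and plates of E10.5 cells were not used. The E12.5 plates in the table of counts are lettered a, c, d and e, and each plate was taken as 1 replicate. The labels do not say how many embryos or litters went into a plate, so that p values measure the spread between plates only. Plates a, c, d and e gave 16, 15, 17 and 16 Krt5-positive cells and 32, 23, 19 and 27 Krt5-negative cells. Total reads were between 16958788 and 20106286 per plate. The 4 plates use the same set of 92 well names, 91 of them on all 4 plates, so a cell is identified by plate and well together. A well with more than 1 cell would not have been recognised, because doublets were not called.

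Keratins form filaments from paired type I and type II chains. Krt8 (type II) and Krt18 (type I) are the pair of simple epithelia and of cTEC, while Krt5 (type II) usually pairs with Krt14 (type I) in the basal layer of stratified epithelia and in many mTEC. The thymic cortex selects T cells on peptides cut by the Psmb11 proteasome, and its cells express the transcription factor Foxn1 together with Ccl25, a chemokine that draws in lymphoid progenitors, and Prss16, a protease of the peptide presentation pathway. Cells with markers of both compartments are of interest because a shared progenitor of the cortical and medullary lineages has been proposed. Krt5 lies on the minus strand of chromosome 15 from 101707070 to 101712898 (GRCm38, GENCODE vM21), with Krt8 289.6 kb and Krt18 321.1 kb away on the same chromosome, measured between the lower coordinates of the genes. Psmb11 lies on chromosome 14 from 54621433 to 54629556.

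Sorted as epithelium, the cells carried the epithelial adhesion gene Epcam at 379 ± 192 CPM in the Krt5-positive sums and 328 ± 166 CPM in the Krt5-negative sums (mean ± SD, n = 4 plates, reads of the cells of a plate added together). Foxn1, Ccl25 and Prss16, which the rule did not use, had a read in 55, 64 and 59 of the 64 Krt5-positive cells, but also in 37, 46 and 44 of 47 cells with Krt5 and Krt17 or Cldn4, so they do not set the cells apart from those. Markers of mesenchyme, endothelium, blood and parathyroid were low. Of 8 mesenchymal markers 5 were at 0 in every Krt5-positive sum and the list added up to 0 to 1.2 CPM, and 5 of 5 endothelial markers were at 0. The 11 blood markers added up to 0 to 29.8 CPM, with Ptprc, Cd3e and Hbb-bs at 0. The 7 parathyroid markers added up to 37.9 to 85.5 CPM in the Krt5-positive and 73.0 to 170 CPM in the Krt5-negative sums, mostly from Npnt, and Gcm2, the regulator that defines the parathyroid, was at 0 in the Krt5-positive sums. The 7 neural markers added up to 306 to 779 and 473 to 867 CPM, nearly all of it the neurofilament gene Nefm, with Neurod1 at 0.

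Krt5 itself formed a wide range and not a single level in the positive cells. The rule fixes its direction, so these values are a description. In single Krt5-positive cells Krt5 ran from 50.7 to 3540 CPM with a median of 241 CPM, 20 cells were at 500 CPM or more, and 9 were at 1000 CPM or more. The plates had medians of 349, 465, 172 and 166 CPM (a, c, d and e). One cell supplied 44.4% of the Krt5 reads of plate a and one supplied 45.2% of those of plate d, so the summed level of a plate leaned on few cells. In the Krt5-negative cells Krt5 ran from 0 to 39.1 CPM, and 64 of the 101 had no Krt5 read. Just inside the threshold were cells at 50.7, 50.98 and 51.6 CPM, and just outside it cells at 39.1, 35.7 and 31.0 CPM, resting on 12, 12, 18, 6, 12 and 5 reads.

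**Figure D1:**
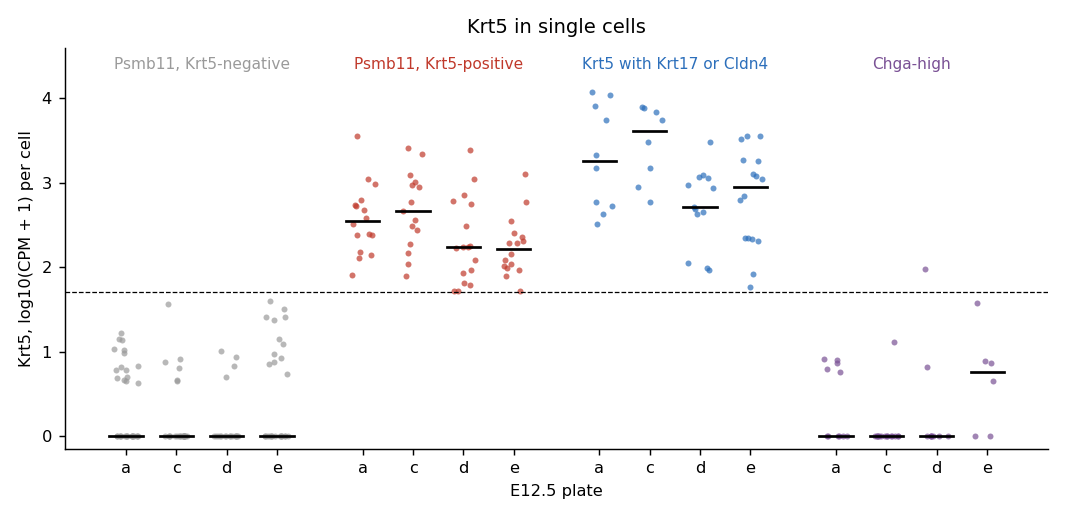
Krt5 in every cell, as log10(CPM + 1), by plate and by kind of cell; each point is 1 cell, the bar is the median of the plate and the dashed line is the threshold of 50 CPM. Krt5-positive Psmb11 cells (median 241 CPM) lie below Krt5 cells with Krt17 or Cldn4 (median 1111 CPM), while Krt5-negative and Chga-high cells lie mostly at 0.

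The Krt5 reads were spread over both sequencing runs that the table of counts adds up. A further repeat run of plate e is not part of the table and was not used. All 64 Krt5-positive cells had a Krt5 read in both runs. With the 50 CPM limit applied to each run alone, 60 of 64 passed in the first run and 64 of 64 in the repeat run, against 1 and 0 of the 101 Krt5-negative cells. Molecule counts after distribution-based error correction (DBEC) gave a similar split, with a Krt5 molecule in the first run in 63 of 64 Krt5-positive and 10 of 101 Krt5-negative cells. The median Krt5-positive cell had 3 Krt5 molecules in the first run and the highest had 53. The rule used the sum of these runs, so the split within each is largely fixed by the choice of the cells and is given as a description. Both runs also read the same library.

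The share of Psmb11 cells that were Krt5-positive was 38.8% (64 of 165, exact binomial 95% interval 31.3% to 46.7%). By plate it was 33.3%, 39.5%, 47.2% and 37.2%, and the intervals of all 4 plates overlapped. Intervals cover counting error only. The Chga-high cells, which are parathyroid-type cells from the same plates and should lack Krt5, give the background: 1 of 41 reached 50 CPM of Krt5 (2.44%, interval 0.0617% to 12.9%) and 12 of 41 had any Krt5 read. Their median depth was 168357 reads, against plate medians of 199288 to 235391 reads in the Krt5-positive cells.

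A further E12.5 plate, lettered b, was sequenced in a single run and is not part of the table of counts, so neither the rule nor the tests used it. With the same limits it held 29 Psmb11 cells, of which 10 were Krt5-positive (34.5%, interval 17.9% to 54.3%), while 1 of its 13 Chga-high cells was. Its cells were shallower, with median totals of 82307 reads in the Krt5-positive and 85999 reads in the Krt5-negative cells.

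Krt5-positive cells were somewhat more deeply sequenced. Median reads per cell were 228610, 209435, 235391 and 199288 on plates a, c, d and e in the Krt5-positive cells and 205860, 175072, 226000 and 175643 in the Krt5-negative cells. The positive side was the higher on 4 of 4 plates, with means of 218181 ± 16717 and 195644 ± 24827 reads (SD, n = 4), but the plates of the 2 sides overlapped (two-sided exact permutation test p = 0.171, and the smallest p that 4 against 4 allows is 0.0286). Genes detected followed the same order. The medians were 2672.5, 2062, 2619 and 3079.5 protein-coding genes in Krt5-positive cells against 2475.5, 1848, 2489 and 2934 in Krt5-negative cells (mean difference 172 genes, exact permutation test p = 0.600 with sides exchanged across plates). With every cell thinned to 40000 reads the difference was 95.4 genes, still on 4 of 4 plates (exact permutation test p = 0.657). These tests carry the spread between plates. Within plates the differences were 22750, 34363, 9391 and 23645 reads and 197, 214, 130 and 145.5 genes (a, c, d and e), all of 1 sign, and with sides exchanged within plates only the exact permutation test gave p = 0.125 for each, the smallest that 4 pairs allow. The spread between plates, from 2062 to 3079.5 genes on the positive side, was several times the difference between the sides of a plate. For sums of thinned cells the rule was applied again to the thinned counts. This gave 17, 16, 16 and 14 Krt5-positive cells on plates a, c, d and e, so depth and the choice of cells both changed. In these sums the log2 fold changes of Krt18, Krt8 and Clu described below were 0.85, 0.58 and 1.33, and edgeR again called 0 genes. Those of Tex10, Cldn6, Hes1 and Tpx2 shrank from 1.25, 1.49, 1.10 and -1.68 to 0.77, 0.99, 0.86 and -1.01. None of these kept an unadjusted p under 0.05 by edgeR, while Tbata, from 1.76 to 1.88, did.

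**Figure D2:**
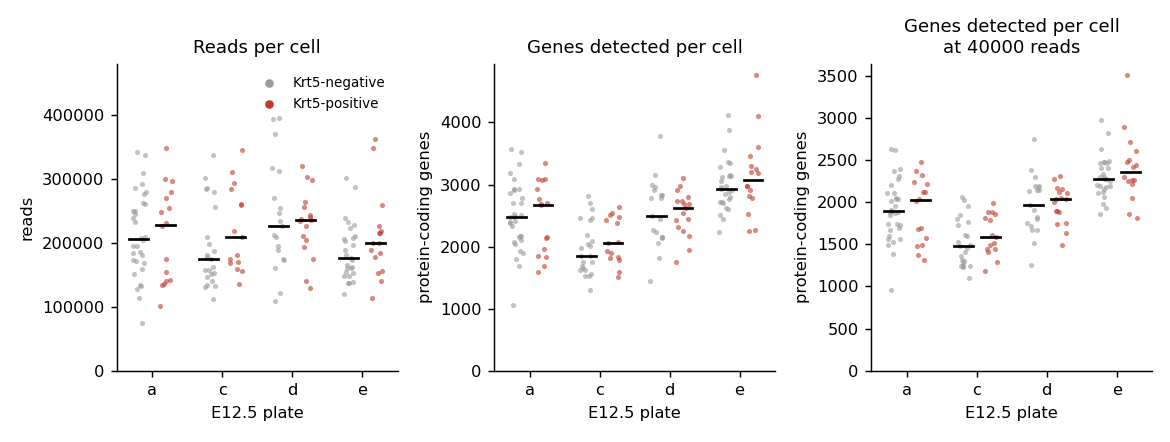
Reads per cell, protein-coding genes detected per cell, and genes detected after thinning each cell to 40000 reads, for Krt5-negative (grey) and Krt5-positive (red) Psmb11 cells by plate; each point is 1 cell and the bar is the median. The red median is above the grey one on each of the 4 plates in all panels, by less than the difference between plates.

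Across the transcriptome no gene passed the adjusted test between Krt5-positive and Krt5-negative cells. Reads were summed per plate and side and tested with edgeR, leaving out Krt5, Psmb11, Krt17, Cldn4 and Chga, which chose the cells. Of 8517 genes tested, 0 passed an adjusted p of 0.05 (0%), and the lowest adjusted p was 0.99996. At an unadjusted p under 0.05 there were 77 genes higher in Krt5-positive cells (0.904% of those tested) and 106 lower (1.24%). DESeq2 on the same sums called 11, of which 3 were higher and 8 lower. Counted without a test, 427 genes were higher on all 4 plates (5.01%) and 631 were lower on all 4 (7.41%). These shares are the background against which the gene groups below are to be read. The sums could reveal large changes only: in simulated sums of this design edgeR recovered 0% of genes changed 2-fold (log2 change of 1), 11.6% at a log2 change of 2 and 16.7% at a log2 change of 3. An absence of calls is therefore no evidence that the cells were alike.

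The keratins of simple epithelia were higher in Krt5-positive cells on every plate, without passing the adjusted test. Krt18 was at 3110, 5314, 5246 and 4611 CPM on plates a, c, d and e in Krt5-positive cells and at 1852, 2619, 2090 and 3162 CPM in Krt5-negative cells. It was the higher on each plate, by a log2 fold change of 0.92 (standard error 0.28, unadjusted p = 0.00776, adjusted p = 0.99996 by edgeR), with 1 positive plate within the negative range. Krt8, its partner, was at 1475, 1874, 1257 and 1194 CPM against 1085, 1180, 668 and 1004 CPM, so that every positive plate was above every negative one (log2 fold change 0.57, standard error 0.24, unadjusted p = 0.0337, and not past the adjusted threshold). Both genes had a read in all 165 cells. The median Krt5-positive cell had 4070 CPM of Krt18 against 1992 CPM in the median Krt5-negative cell, and no cell supplied over 6.91% of the reads of either gene on the positive side.

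Krt19, a type I keratin of simple and progenitor epithelia, was far less abundant, at 31.4, 9.92, 30.4 and 29.2 CPM against 0.146, 0, 7.01 and 6.15 CPM. The plates did not overlap, but only 8 of 64 and 7 of 101 cells had a read, and the unadjusted p was 0.0824. Krt14, the usual partner of Krt5, had a read in 1 Krt5-positive and 1 Krt5-negative cell, and the whole level of 48.4 CPM on plate c came from a single cell. Krt15 was at 0 on every plate on both sides. Of the 14 keratins listed besides Krt5 and Krt17, 5 were abundant enough to be tested, 4 of them with a positive log2 fold change, 3 of them higher on all 4 plates, 2 with an unadjusted p under 0.05, and none past the adjusted threshold. The one with a negative value was Krt10, a keratin of differentiated epidermis, at 50.6 ± 49.3 against 97.6 ± 76.8 CPM. The median log2 fold change of the tested keratins, 0.57, is the value of Krt8 itself, beside -0.02 over all genes tested. Nothing is read from this median or these counts, since 9 members were not tested. Krt19, low in the Krt5-negative cells, could pass the filter on low counts through the Krt5-positive side alone.

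**Figure D3:**
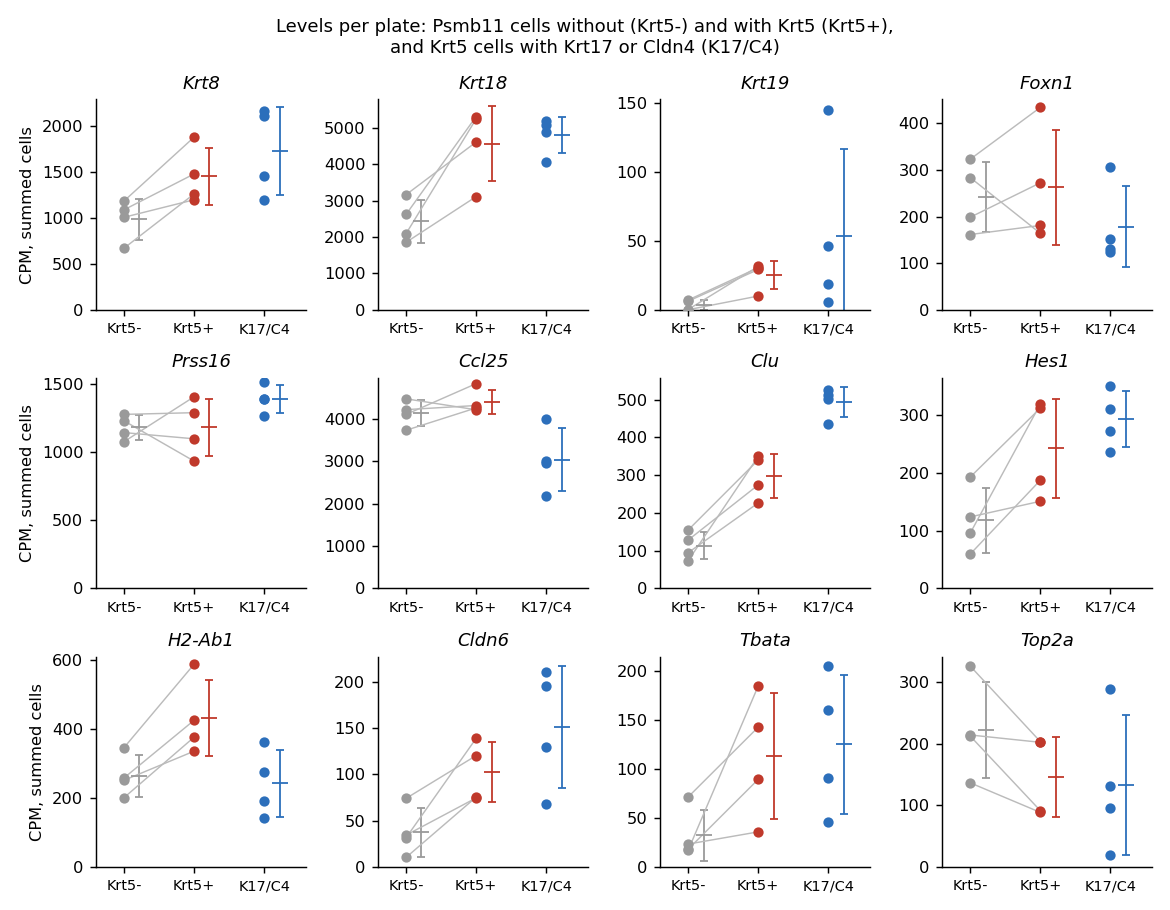
Levels of 12 genes in CPM of the summed cells of each plate, for Krt5-negative Psmb11 cells (grey), Krt5-positive Psmb11 cells (red) and Krt5 cells with Krt17 or Cldn4 (blue); points are plates, grey lines join the 2 sides of a plate, and the bars beside the points are the mean and SD of 4 plates. Krt8, Krt18, Krt19 and Clu are higher in red than in grey on every plate, while Foxn1, Prss16 and Ccl25 overlap.

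The main cortical genes had log2 fold changes near 0. Prss16 was at 936, 1409, 1100 and 1292 CPM in Krt5-positive and at 1233, 1079, 1146 and 1280 CPM in Krt5-negative cells (log2 fold change 0.02, standard error 0.23). Ccl25 was at 4215, 4316, 4259 and 4832 CPM against 4474, 4218, 3731 and 4105 CPM (0.12, standard error 0.18). Foxn1 differed by 0.13 (standard error 0.35), from 164 to 434 CPM against 161 to 323 CPM, and Pax1, a transcription factor of the third pharyngeal pouch that is kept on in thymic epithelium, by 0.17 (standard error 0.23). The standard errors leave room for differences in either direction. Psmb11 was used by the rule only as a lower limit, and was at 1183, 2135, 1228 and 878 CPM in Krt5-positive and 929, 1391, 914 and 926 CPM in Krt5-negative cells, higher on 3 of 4 plates.

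Of 20 genes in the cortical list 19 were tested, 13 with a positive log2 fold change, beside 4162 of 8517 over all genes. The other 6 were negative, and the median of the list was 0.17. The 3 with an unadjusted p under 0.05 were Krt18, Krt8 and Tbata, a thymic stromal gene regulated by Foxn1. Tbata was at 35.8, 185, 89.5 and 143 CPM against 23.3, 16.9, 18.0 and 71.4 CPM (log2 fold change 1.76, standard error 0.72, unadjusted p = 0.0321), with reads in 21 of 64 and 15 of 101 cells. The next by p was Ppp1r27, at 719 ± 855 against 236 ± 187 CPM (unadjusted p = 0.0831). Apart from Krt18, Krt8 and Tbata, no cortical gene was higher or lower on all 4 plates.

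Genes of medullary progenitors were mostly low on both sides, and those that passed the filter on low counts could do so through either side alone. Of 28 listed genes 18 were tested, of which 15 had a positive log2 fold change, with a median of 0.59, and 6 were higher and 0 lower on all 4 plates. Over all genes 4162 of 8517 were positive, and nothing is read from the count, since 10 members were not tested. None passed the adjusted threshold and 1 had an unadjusted p under 0.05. This was Cldn6, a tight junction claudin of embryonic epithelia, at 75.3, 120, 74.4 and 139 CPM against 10.1, 73.9, 34.2 and 31.4 CPM, with no overlap of plates (log2 fold change 1.49, standard error 0.63, unadjusted p = 0.0377). The tetraspanin Cd9 was at 66.3, 42.4, 17.4 and 7.15 CPM against 2.34, 24.3, 0 and 2.38 CPM and had a read in 19 of 64 Krt5-positive and 9 of 101 Krt5-negative cells (unadjusted p = 0.151). At 40000 reads per cell these shares were 21.9% and 5.94%. Sfn, an epithelial 14-3-3 protein, was at 257 to 613 CPM against 137 to 437 CPM (log2 fold change 0.49, standard error 0.45). Stmn2, a neuronal microtubule regulator on the medullary list, was at 998 ± 351 against 747 ± 122 CPM (unadjusted p = 0.151). Aire and Fezf2, genes of the mature medulla, had a read in 0 of the 165 cells, which allows a share of up to 1.82% of cells with a read, and the receptor Tnfrsf11a had a read in 0 of the 64 Krt5-positive cells, which allows up to 4.69%. These limits are on cells with a read, not on cells that express the gene.

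Among the genes of basal epithelia that were tested, 12 had a positive and 6 a negative log2 fold change. Over all genes 4162 of 8517 were positive. Trp63, the transcription factor that drives Krt5 and Krt14 in stratified epithelia, had a read in 36 of 64 Krt5-positive and 50 of 101 Krt5-negative cells, and was at 23.6, 13.2, 51.9 and 53.0 CPM against 58.6, 44.7, 61.8 and 32.6 CPM (log2 fold change -0.39, standard error 0.67). Of 20 genes of basal adhesion and its regulators 18 were tested, none with an unadjusted p under 0.05, with a median log2 fold change of 0.28. Of the desmosomal plaque genes, Jup (plakoglobin) was at 104 ± 18.7 CPM against 59.9 ± 12.3 CPM with no overlap of plates (unadjusted p = 0.0837), and Pkp1 (plakophilin) was at 51.8, 234, 50.2 and 108 CPM against 7.91, 0.449, 0.219 and 74.0 CPM (unadjusted p = 0.130). Dsp, the linker of the plaque, was at 317, 250.1, 225 and 158 CPM against 264, 112, 245 and 141 CPM (unadjusted p = 0.362). The integrin chain Itgb1 was lower on all 4 plates, at 70.2 ± 49.9 against 177 ± 134 CPM (unadjusted p = 0.0928), and the epithelial transcription factor Grhl2 was at 23.9 ± 25.3 against a mean of 9.67 CPM. The hemidesmosomal collagen gene Col17a1 had a read in 2 cells on each side.

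Notch signalling is required for the medullary lineage, and its genes were therefore listed. Hes1, a direct target of Notch that is also driven by other signals, was at 151, 312, 319 and 187 CPM in Krt5-positive cells and at 124, 193, 95.3 and 59.1 CPM in Krt5-negative cells, higher on 4 of 4 plates (log2 fold change 1.10, standard error 0.41, unadjusted p = 0.0213). The other targets did not share one direction: Heyl was at 103, 47.8, 60.6 and 25.9 CPM against 15.7, 2.70, 22.6 and 26.6 CPM, higher on 3 of 4 plates, while Hey1 had a log2 fold change of -0.29. The ligand gene Jag2 was at 105 ± 33.3 against 164 ± 150 CPM. The receptors Notch1 and Notch3 had a read in 5 and 6 of the 64 Krt5-positive cells. Of 15 genes 10 were tested, 5 in each direction, and the median was 0.04.

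Of 18 genes of mitosis 16 were tested and 14 had a negative log2 fold change, with a median of -0.57, and of 14 genes of DNA replication all were tested and 11 were negative, with a median of -0.26. Over all genes 4355 of 8517 were negative. On all 4 plates 2 of the 16 mitosis and 2 of the 14 replication genes were lower, beside 7.41% of all genes. None passed the adjusted threshold and 3 of the 30 tested had an unadjusted p under 0.05. All of these were lower, beside 1.24% of all genes tested that were lower at that p. Top2a, a topoisomerase of dividing cells, was lower on all 4 plates, at 204, 91.4, 202 and 88.5 CPM against 326, 213, 214 and 137 CPM (log2 fold change -0.57, standard error 0.38, unadjusted p = 0.167). The spindle factor Tpx2 was at 49.4, 18.9, 13.8 and 32.8 CPM against 109, 154, 105 and 15.1 CPM (unadjusted p = 0.0352, and 0.120 by edgeR with the plate as a block). Ube2c, which marks mitotic proteins for destruction, was at 233 ± 41.4 against 364 ± 171 CPM, and the kinesin Cenpe at 46.8 ± 29.7 against 89.3 ± 68.3 CPM. Pola1, the catalytic subunit of DNA polymerase alpha, was at 8.44, 23.1, 5.88 and 2.68 CPM against 63.99, 148, 55.0 and 5.36 CPM, with reads in 8 and 13 cells (unadjusted p = 0.0191). Cdc6, which loads the replicative helicase, was at 1.72 ± 2.35 against 18.6 ± 12.3 CPM in 6 and 14 cells (unadjusted p = 0.0455). It could pass the filter on low counts through the Krt5-negative side alone, and nothing is read from its p. The DNA ligase Lig1 was at 178 ± 54.2 against 240.4 ± 74.3 CPM and the helicase subunit Mcm4 at 106 ± 90.3 against 63.2 ± 45.6 CPM.

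Antigen presentation genes were low at this stage apart from a few. H2-Ab1, a chain of MHC class II, was at 335, 588, 425 and 376 CPM in Krt5-positive cells and at 251, 346, 258 and 200 CPM in Krt5-negative cells, higher on 4 of 4 plates with 1 overlapping plate (log2 fold change 0.74, standard error 0.28, unadjusted p = 0.0228). Its companions varied more: Cd74 was at 35.4 ± 25.7 against 12.9 ± 10.3 CPM and H2-Aa at 72.3 ± 60.3 against 48.3 ± 44.9 CPM. The proteasome activator Psme2 was at 206 ± 53.6 against 142 ± 50.2 CPM, higher on 4 of 4 plates (unadjusted p = 0.149), and the immunoproteasome subunit Psmb10 at 989 ± 494 against 664 ± 289 CPM. Of 18 genes 15 were tested and 12 had a positive log2 fold change (median 0.55). Among 13 transcription factors of the pharyngeal pouch 10 were tested, 8 with a positive value (median 0.39). Of these 10, 1 was higher on all 4 plates and 1, Isl1, was lower on all 4. None of the 10 had an unadjusted p under 0.05. Over all genes 4162 of 8517 were positive, 5.01% were higher on all 4 plates and 7.41% were lower. Nothing is read from the counts of the antigen presentation and pouch lists, since 3 members of each were not tested. Hoxa3, which is required for the thymus, was at 15.9 ± 11.9 against 3.34 ± 4.94 CPM, and Six4 at 51.4 ± 34.8 against 29.7 ± 18.4 CPM. Immediate early and heat shock genes, which can rise during dissociation and sorting, had a median of -0.12 over 12 tested, 5 positive and 7 negative, and none had an unadjusted p under 0.05. Egr1, the smallest by p, was at 403 ± 135 against 528 ± 218 CPM. The mitochondrial share of protein-coding reads was 7.34% ± 0.725 against 7.82% ± 0.300 (exact permutation test p = 0.314).

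**Figure D4:**
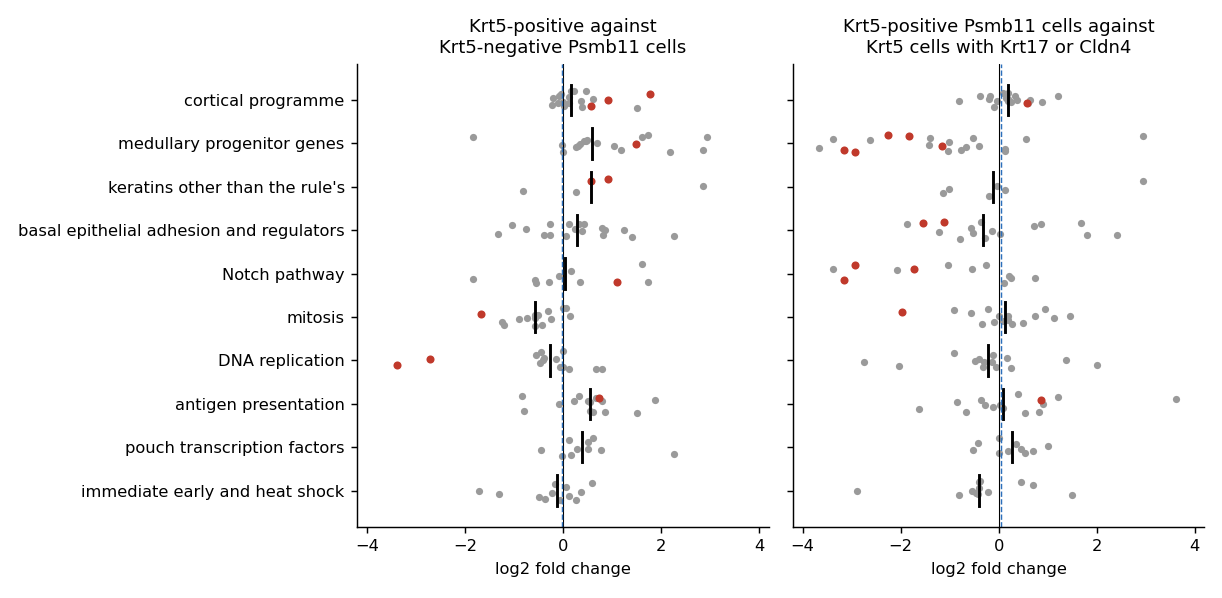
Log2 fold changes of every tested member of each gene list, Krt5-positive against Krt5-negative Psmb11 cells (left) and Krt5-positive Psmb11 cells against Krt5 cells with Krt17 or Cldn4 (right); each point is a gene, red points have an unadjusted p under 0.05, the black bar is the median of the list (not drawn for the medullary and Notch lists on the right) and the dashed blue line is the median of all genes tested. No gene passed the adjusted threshold in either panel, and the medians of the cortical list are 0.17 on the left and 0.19 on the right. Genes low on one side are tested only where the other side is high enough.

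Because no gene passed the adjusted threshold, the genes with the smallest unadjusted p among those at 20 CPM or more on either side and with 1 direction on all 4 plates were read as a description. On the higher side these included Twist2, Clu, Tex10, Ints13, Gtpbp6, Krt18, Ing1, Gga1 and Tmem2. Clu, a secreted chaperone of epithelia, was at 226, 340, 349 and 274 CPM in Krt5-positive and at 94.1, 154, 72.8 and 128 CPM in Krt5-negative cells, with reads in 48 of 64 and 52 of 101 cells (log2 fold change 1.42, standard error 0.36, unadjusted p = 0.00198). Tex10 was at 246, 376, 167 and 160 CPM against 82.4, 116, 82.4 and 113 CPM (unadjusted p = 0.00594), and Ing1, a chromatin reader, at 240, 92.6, 148 and 181 CPM against 32.8, 60.4, 74.1 and 68.1 CPM (unadjusted p = 0.00820). Larger fold changes came from few cells. Twist2, which DESeq2 called, had a read in 7 of 64 Krt5-positive and 4 of 101 Krt5-negative cells. For Ints13 a single cell held 60.7% of the Krt5-positive reads. Its log2 fold change was 3.90, and 1.87 without plate a (unadjusted p = 0.208 by edgeR).

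On the lower side the 10 genes were Polr1a, Fam219b, Lins1, Itpr2, RP23-40G2.3, Wwc2, Spen, Ablim1, Cdca8 and Atp11a. Of these, Polr1a, Fam219b, Lins1, Itpr2, Wwc2, Spen and Atp11a had means of 0 to 1.64 CPM in the Krt5-positive cells. They entered the test through the Krt5-negative side, where they were higher, and nothing is read from their p. The same holds the other way for Twist2, at a mean of 0.342 CPM in the Krt5-negative cells. Ablim1, an actin-binding protein, was at 59.6, 29.8, 36.6 and 30.1 CPM against 172, 165, 86.4 and 68.7 CPM (unadjusted p = 0.00575). Cdca8, a subunit of the chromosomal passenger complex of mitosis, was at 62.0, 36.7, 34.5 and 104 CPM against 174, 202, 322 and 108 CPM, with reads in 13 of 64 and 32 of 101 cells (unadjusted p = 0.00618). Lins1 had no read in any Krt5-positive cell and a read in 10 Krt5-negative cells, one of which held 50.96% of the reads. On plate b, which took no part in the choice, 3 of the 10 higher genes kept their direction, 5 had the other and 2 were at 0 on both sides. Of the 10 lower genes 6 kept it, 3 did not and 1 was at 0 on both sides. Krt18 kept its direction there, at 2697 CPM in the 10 Krt5-positive and 2215 CPM in the 19 Krt5-negative cells, as did Krt8 with 1103 and 708 CPM. Clu did not, at 24.0 and 166 CPM, nor did Tex10 at 0 and 98.3 CPM or Ablim1 at 176 and 153 CPM. Ing1, at 180 and 108 CPM, and Cdca8, at 28.6 and 167 CPM, kept theirs. Higher levels in the Krt5-positive cells of plate b were not particular to keratins. Prss16, Ccl25 and Foxn1 were also higher in its Krt5-positive cells, at 1577, 2783 and 276 CPM against 805, 2299 and 254 CPM.

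The genes whose level in single cells was most like that of Krt5 included Krt18 and Krt8. Ranked within plates over all 165 cells, the correlations (Spearman's rho, a description over cells that share libraries and depth) were highest for Krt18 at 0.36, followed by Clu at 0.34, Pkp1 at 0.32, Krt8 at 0.30 and the small heat shock gene Hspb1 at 0.30. Over the 8517 genes rho ran from -0.31 to 0.36, and it was above 0.2 for 1.06% of them. For Krt18 it was 0.30, 0.30, 0.60 and 0.29 on plates a, c, d and e. Krt5 had a rho of 0.08 with the total reads of a cell and of 0.07 with the genes detected. Foxn1, Prss16 and Ccl25 had values of 0.03, -0.02 and 0.10. These correlations are weak, and Pkp1 had a read in only 28 cells. Krt5 also split the cells, and 64 of the 101 Krt5-negative cells tied with no Krt5 read. The correlations are therefore not independent of the fold changes above.

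Krt5 was also present in 47 cells of the same plates with Krt17 or Cldn4 at 50 CPM or more (10, 8, 13 and 16 on plates a, c, d and e), and 28 of these carried Psmb11 at 50 CPM or more. The comparison with them asked how the Krt5-positive Psmb11 cells stand relative to cells with more than 1 medullary marker. Krt5 was higher there, at 3744, 4228, 855 and 1279 CPM on the plates, against 649, 762, 447 and 249 CPM in the Krt5-positive Psmb11 cells, with no overlap. Krt17, which the rule kept low, was at 961, 1618, 232 and 293 CPM. Krt8 and Krt18 had log2 fold changes near 0: Krt18 was at 4075, 5087, 5188 and 4881 CPM, giving a log2 fold change of -0.03 (standard error 0.25), and Krt8 at 2101, 2161, 1190 and 1455 CPM, giving -0.20 (standard error 0.25). Clu was at 526, 512, 435 and 502 CPM in these cells, above each of the 4 plates of Krt5-positive Psmb11 cells.

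Of 7725 genes tested between the 2 kinds of Krt5 cell, edgeR called 0 (0%), with 88 higher (1.14%) and 93 lower (1.2%) in Krt5-positive Psmb11 cells at an unadjusted p under 0.05. DESeq2 called 28, of which 15 were higher and 13 lower. Counted without a test, 594 genes were higher on all 4 plates (7.69%) and 408 were lower (5.28%). In simulated sums of this comparison edgeR recovered 12.8% of genes at a log2 change of 3 and 0% at smaller changes. Mt1, a metallothionein, was at 0.873, 0.301, 0 and 0 CPM in Krt5-positive Psmb11 cells and at 296, 824, 11.6 and 208 CPM in the cells with Krt17 or Cldn4, with reads in 4 of 64 and 13 of 47 cells (adjusted p = 0.142 by edgeR). Mt1 passed the filter on low counts only through the cells with Krt17 or Cldn4, where it was high, and those cells were chosen by medullary markers. No support is therefore drawn from its calls, which changed with the fit. It was called by DESeq2, by edgeR without that filter, with the plate as a block, and without plate d, where its level was lowest. It was not called without plates a, c or e. Mt2, a similar gene beside it, was also called without plate d, and reads can be split between Mt1 and Mt2.

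Of the 28 medullary progenitor genes 20 were tested against the cells with Krt17 or Cldn4, and none passed the adjusted threshold. Genes near 0 in the Krt5-positive Psmb11 cells could enter this test only through the other group, where they were high, so that no count of directions or median is given for the medullary and Notch lists. The rule also kept Krt17 and Cldn4 low in the Krt5-positive Psmb11 cells, while the other group was chosen for having either. The choice of cells therefore bears on genes that go with these markers, and the values below are a description. Cldn7, a claudin, was at 18.3, 9.62, 35.8 and 73.0 CPM against 168, 65.5, 110 and 326 CPM (unadjusted p = 0.0184). The receptor Notch3 was at 19.2, 5.41, 35.1 and 0.298 CPM against 150, 133, 210 and 57.6 CPM. Plet1, the surface antigen used for sorting, was at 44.5, 52.9, 19.96 and 53.9 CPM against 138, 279, 163 and 65.5 CPM (unadjusted p = 0.0121). The means of Cldn7, Notch3 and Plet1 in the Krt5-negative cells were 16.7, 5.30 and 30.5 CPM. Of the basal genes, Dsp, the desmosomal linker, was at 237 ± 65.7 against 531 ± 217 CPM (log2 fold change -1.12, standard error 0.34, unadjusted p = 0.00670) and Perp, a desmosomal membrane protein, at 141 ± 73.0 against 416 ± 152 CPM (-1.54, standard error 0.49, unadjusted p = 0.00880). Of the Notch genes, Nrarp, a target that feeds back on the pathway, was at 28.0 ± 13.8 against 94.3 ± 41.0 CPM (unadjusted p = 0.0389), and the receptor Notch1 at 6.34 ± 6.99 against 50.4 ± 32.6 CPM. The copper chaperone gene Atox1, on the medullary list, was at 424 ± 168 against 947 ± 431 CPM (unadjusted p = 0.0281).

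Of the cortical genes 19 were tested, 13 with a positive log2 fold change beside 4052 of 7725 over all genes, and 3 were higher on all 4 plates. The median was 0.19, beside 0.05 over all genes. The rule required Psmb11 of the Krt5-positive cells only, and 19 of the 47 others were under 50 CPM of it, so the choice of cells bears on the whole cortical list. Fermt1, an adaptor of integrins, was at 444 ± 142 against 240.0 ± 93.4 CPM and the growth factor gene Ptn at 1149 ± 457 against 749 ± 410 CPM, without an unadjusted p under 0.05. Ccl25 was higher on 4 of 4 plates, at 3003, 2967, 4007 and 2182 CPM in the cells with Krt17 or Cldn4 (log2 fold change 0.58, standard error 0.24, unadjusted p = 0.0301). H2-Ab1 was at 191, 275, 362 and 142 CPM in the cells with Krt17 or Cldn4, lower than in the Krt5-positive Psmb11 cells of each plate (log2 fold change 0.87, standard error 0.38, unadjusted p = 0.0400). Among the cell cycle genes Tpx2 was lower on 4 of 4 plates (log2 fold change -1.98, unadjusted p = 0.0235), while the mitosis list had 10 of 16 tested positive. The immediate early gene Fos was at 677 ± 187 against 1013 ± 308 CPM (unadjusted p = 0.0852), lower on 4 of 4 plates. The genes with the smallest p on the higher side were Igfbp2, Huwe1, Ttf1, Kank2 and Arhgap25, and on the lower side Mt1, Clec16a, Cmtm8, Adam28 and RP24-180B11.5. Mt1, Clec16a and Adam28 had means of 0.293, 0 and 0.128 CPM in the Krt5-positive Psmb11 cells. Huwe1, Ttf1 and Arhgap25 had means of 2.62, 0.377 and 0.0638 CPM in the cells with Krt17 or Cldn4. They entered the test through the group where they were high, and nothing is read from their p. Igfbp2, a secreted binding protein of insulin-like growth factors, was at 294, 526, 454 and 495 CPM against 131, 177, 141 and 140 CPM, with reads in 50 of 64 and 26 of 47 cells (log2 fold change 1.64, standard error 0.36, unadjusted p = 0.000607, adjusted p = 0.851). In the Krt5-negative cells Igfbp2 was at 351, 450.5, 198 and 380 CPM, a range that overlapped that of the Krt5-positive cells.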

How the data were processed

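Single cells were sorted into 96-well plates, with libraries made per plate (BD Precise WTA, although sample titles name SmartSeq2). The authors sorted reads by well with version 2.0 of the BD Precise pipeline, aligned them with STAR and counted them by HTSeq union rules on GENCODE vM18 (GRCm38.p6 per the file headers, GRCm38.p5 per the labels). The deposited values used were raw read counts and DBEC molecule counts. In every well of the E12.5 plates used the table of counts equalled the sum of the first and a repeat run, which tied its numbered columns to the lettered plates.

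The cells, comparisons and gene lists were chosen with earlier results of these data known. CPM used all genes, and protein-coding reads were summed per plate and side and tested with edgeR 4.0.16 (TMM, filterByExpr, robust quasi-likelihood, R 4.3.3). P values were adjusted by the Benjamini-Hochberg method over all tested genes (threshold 0.05), and standard errors came from the F statistic. Alternatives were DESeq2 1.42.0, limma 3.58.1 on log2(CPM + 1), other splits, molecules, thinning to 40000 reads (seed 1), the plate as a block and leaving out plates. Genes named were those of the rule, the members of each list with the smallest p, up to 4 (not all for the second comparison and the stress list), the 10 (or 5) smallest p in each direction with 1 direction on 4 plates and at least 20 CPM, and the 5 most like Krt5. Other list members were named after their values were seen. Some genes that met these rules are not reported here. In simulated data edgeR made 1 false call among 7801 genes and DESeq2 made 47. The 2 sums from each plate came from 1 library, which pairs them, and residuals of a plate correlated at r from 0.02 to 0.10. The main fit did not use this pairing. Between Krt5-positive and Krt5-negative cells, edgeR with the plate as a block gave lower unadjusted p for Krt18 (0.000487) and Krt8 (0.0101). It gave higher ones for Clu (0.00295) and Tpx2 (0.120), and called 0 genes.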

Additional observations from a re-analysis of the deposited data

Results flagged for a closer look

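Dixon's test at the 95% level marked 6 of 33 sets of 4 plates, where chance marks about 1 in 20. In Krt5-negative cells the highest Psmb11 level, 1391 CPM on plate c, stood apart from 914 to 929 CPM on the other plates, and the highest Tbata level, 71.4 CPM on plate e, stood apart from 16.9 to 23.3 CPM. In Krt5-positive cells Krt19 was low on plate c at 9.92 CPM against 29.2 to 31.4 CPM, and Ccl25 was high on plate e at 4832 CPM against 4215 to 4316 CPM. Krt14 was at 48.4 CPM on plate c in Krt5-positive cells and at 2.34 CPM on plate a in Krt5-negative cells, and at 0 on all other plates, because 1 cell of each side had reads.

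Plate b, which was in none of the comparisons, also held Krt5-positive Psmb11 cells, 34.5% of 29 (interval 17.9% to 54.3%). Of its Chga-high cells 1 of 13 was Krt5-positive, and with so few cells the shares were not tested against each other.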

How the results depend on the processing

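Between Krt5-positive and Krt5-negative cells edgeR called 0 genes under each other setting of the edgeR or limma fit, including the replicate block with the plate (216 genes at an unadjusted p under 0.05 against 183 without it), molecules, splits at 25 or 100 CPM, thinned cells, and 0 to 0 without each plate in turn. DESeq2 called 11. Against cells with Krt17 or Cldn4 the counts were 28 with DESeq2, 1 without a filter on low counts, 1 with the replicate block, and 0 to 2 without each plate in turn, with 2 only when plate d was left out. In simulated sums DESeq2 made more false calls than edgeR. The difference in reads per cell was 18595 to 26919 without each plate in turn. With the replicate block, chosen after seeing the data, it gave an exact permutation p of 0.125 within plates, as did the difference in genes detected (22537 reads and 172 genes). The difference in genes detected was 95.4 when cells were thinned to 40000 reads and 158 to 186 without each plate. The Krt5-positive share was 31.5% with a split at 100 CPM, 44.2% by a molecule in the first run, and 36.4% to 41.0% without each plate. Each of the 28 and 21 named genes kept its direction wherever it was tested. They were picked for a small p in the same cells, so refits of these cells could hardly reverse them. The limits of the methods on genes detected and mitochondrial share removed no cell of either side, so that alternative repeats the main fit. The log2 fold change of Krt18 ran from 0.76 to 1.12, with an unadjusted p under 0.05 in 17 of 18 alternatives, that of Krt8 from 0.41 to 0.70, in 13 of 18, and that of Clu from 1.16 to 1.58, in 18 of 18. Clu nevertheless had the other direction on plate b, which is outside these alternatives. Hes1, Cldn6, Tpx2 and Cdc6 had such a p less often, in 12 of 18, 11 of 18, 7 of 18 and 10 of 15. Depth limits detection: Krt5 calls near the threshold rest on about 5 to 18 reads.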

Other observations

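Before cells with Krt17 or Cldn4 were set aside, 202 Psmb11 cells under 2000 CPM of Chga were present on the 4 plates, 92 of them with Krt5. Krt17 or Cldn4 at 50 CPM or more was found in 28 of the 92 cells with Krt5 (30.4%) and in 9 of the 110 without (8.18%). By plate the shares were 23.8%, 21.1%, 34.6% and 38.5% with Krt5 and 3.03%, 4.17%, 9.52% and 15.6% without it, higher on 4 of 4 plates. These genes and thresholds are those that chose the cells, and the shares were seen before they were set side by side, so they are given as a description with no test. Of the 47 Krt5 cells with Krt17 or Cldn4, 19 were under 50 CPM of Psmb11.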
